A study of Homo sapiens with 3 samples.

Results

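The host genes of small nucleolar RNAs (snoRNAs) that are annotated as long noncoding RNAs were described in RCC4 cells. RCC4 is an established line from a clear cell kidney tumour, without working VHL, and here it carried a lentiviral Cas9 vector. The genes were taken by name, as every gene whose symbol is SNHG followed by a number, together with GAS5, ZFAS1 and EPB41L4A-AS1, which gave 31 of the 60605 genes in the table. All 3 libraries belong to 1 group of cells kept for 24 h in IFN-gamma at 1000 U/mL and TNF at 25 ng/mL, with 3 flasks in each biological replicate. Poly(A) RNA was sequenced with a directional kit. Cells without cytokine were not analysed here, so the values are levels in treated cells and not responses. The libraries held 26264283 to 33458691 reads assigned to genes.

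A snoRNA host gene carries snoRNAs in its introns. After splicing, the introns are trimmed to the mature snoRNAs, which guide the chemical modification of ribosomal RNA. Box C/D snoRNAs guide ribose methylation and box H/ACA snoRNAs guide pseudouridylation, while the related small Cajal body RNAs act on the RNAs of the spliceosome. The spliced host RNA that remains often has no conserved open reading frame, is exported and is degraded on ribosomes by nonsense-mediated decay. Many such hosts share with ribosomal protein genes a start that is rich in pyrimidines, the 5' terminal oligopyrimidine (TOP) tract, which ties translation to growth signalling through mTOR and LARP1.

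The 31 genes lie on 15 chromosomes, 5 of them on chromosome 17. RefSeq places 150 snoRNAs and small Cajal body RNAs inside the spans of 30 members, 83 of them in SNHG14, the long imprinted transcript of chromosome 15 that carries the SNORD115 and SNORD116 clusters. Of the other 67, 38 are box C/D, 22 box H/ACA and 4 Cajal body RNAs by name, and the rest have no such name. GAS5 holds 11, SNHG1 holds 9 and SNHG17 holds 5. By these names 12 members carry box C/D snoRNAs alone, 10 carry box H/ACA snoRNAs alone, 3 (GAS5, SNHG12 and SNHG25) carry both, and 4 (SNHG10, SNHG20, SNHG21 and SNHG22) carry Cajal body RNAs.

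A few of the snoRNAs are shown because they are what these genes are annotated to release. Sequences are those of GENCODE 29 (GRCh38), written as DNA from 5' to 3'. In the box C/D snoRNAs the capitals mark the first TGATGA (box C) and the last CTGA (box D). In the box H/ACA snoRNAs they mark the first AGANNA or ACANNA between bases 51 and 85 (box H) and the last ACA.
SNORD27 in SNHG1 (chr11:62855012-62855083, minus strand): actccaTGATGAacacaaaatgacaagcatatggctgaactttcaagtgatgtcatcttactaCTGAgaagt
SNORD12B in ZFAS1 (chr20:49280319-49280409, plus strand): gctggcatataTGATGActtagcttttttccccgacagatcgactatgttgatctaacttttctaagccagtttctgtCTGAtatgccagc
SNORD49A in SNHG29 (chr17:16440036-16440106, plus strand): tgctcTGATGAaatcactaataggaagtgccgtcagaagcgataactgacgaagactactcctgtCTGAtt
SNORA71A in SNHG17 (chr20:38427309-38427442, minus strand): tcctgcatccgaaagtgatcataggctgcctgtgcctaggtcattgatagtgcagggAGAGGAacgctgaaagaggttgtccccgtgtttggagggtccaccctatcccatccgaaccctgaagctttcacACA
SNORA9 in SNHG15 (chr7:44985378-44985510, minus strand): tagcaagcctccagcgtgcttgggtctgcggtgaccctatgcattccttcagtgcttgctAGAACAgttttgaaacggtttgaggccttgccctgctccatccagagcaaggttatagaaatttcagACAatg
These matches are descriptions of the letters. In SNORD27 the marked boxes begin at bases 7 and 64 of 72, so they stand near the ends, and in SNORA9 the last ACA begins at base 128 of 133.

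None of the snoRNAs shown had a read in any library. Of the 143 snoRNA and small Cajal body RNA genes that GENCODE 29 places inside members, 0 had a read in any library. GENCODE 29 places 0 such genes inside GAS5, where RefSeq places 11. Reads of RefSeq snoRNAs missing from the 143 were not examined. Of the 848 such genes not inside members, 10 had a read. Over all 991, a read was found for 1 of the 765 that lie wholly inside other genes' spans and 9 of the 220 that lie outside them. Mature snoRNAs have no poly(A) tail, and the libraries were made from poly(A) RNA. The part of overlap or of the missing tail in these counts was not tested. Of the 59 of the 143 genes that lie outside SNHG14, 37 overlap an exon of at least 1 host transcript, and how reads there were assigned is not known. The values below are those counted for the host genes, and levels of the snoRNAs are not read from them.

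The transcript starts are shown for the highest hosts and for SNHG12, SNHG19 and SNHG18, which carry a pyrimidine run from the first base. Of the 12 undetected hosts, only the 3 with such a run of at least 5 bases are shown. Each window runs from 10 bases before the RefSeq start (GRCh38.p14) to 20 bases into the transcript. Capitals mark the longest run of C and T within it.
SNHG29 (chr17:16438977-16439006, plus strand): CCTTTTgtgaggattgggatattccgactc
ZFAS1 (chr20:49278632-49278661, plus strand): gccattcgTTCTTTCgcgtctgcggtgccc
SNHG16 (chr17:76557754-76557783, plus strand): gggcggtctcgcgTTCTTTTCgaggtcggc
GAS5 (chr1:173869026-173869055, minus strand): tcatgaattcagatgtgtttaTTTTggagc
SNHG1 (chr11:62855866-62855895, minus strand): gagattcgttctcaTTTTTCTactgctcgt
SNHG17 (chr20:38435309-38435338, minus strand): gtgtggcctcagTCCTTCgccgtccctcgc
SNHG12 (chr1:28581854-28581883, minus strand): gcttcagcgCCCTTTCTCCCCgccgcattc
SNHG19 (chr16:2155339-2155368, minus strand): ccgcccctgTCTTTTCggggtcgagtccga
SNHG18 (chr5:9546190-9546219, plus strand): gccgcgccgCCTCCTCCTCCTCCTCCTCCC
SNHG4 (chr5:139274091-139274120, plus strand): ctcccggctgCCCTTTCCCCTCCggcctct
SNHG5 (chr6:85678714-85678743, minus strand): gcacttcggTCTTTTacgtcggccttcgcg
SNHG32 (chr6:31834906-31834935, plus strand): cattttagTTCTTTTTgcgaagtgggctcg
A run of at least 5 pyrimidines that begins with C at the annotated start was found in 7 of the 27 members with a RefSeq promoter (25.9%), against 1429 of all 35116 promoters (4.07%). The RefSeq starts of SNHG6, SNHG9, SNHG15 and SNHG25 were not analysed here. The 7 were SNHG4, SNHG5, SNHG12, SNHG18, SNHG19, SNHG32 and ZFAS1, of which 4 were detected. In SNHG16, SNHG17 and SNHG1 the run lies 2 to 4 bases inside the annotated start, so the count depends on the exact base annotated. Over the GENCODE 29 transcripts, a set chosen after the RefSeq starts were seen, 39 of 292 member transcripts (13.4%) began this way, against 4979 of 206694 transcripts (2.41%), and 15 of the 31 members had at least 1 such transcript. GAS5 had 6 of 29 and SNHG6 had 3 of 5. The RefSeq start of GAS5 shown above has no such run. It lies upstream of the GENCODE 29 span of GAS5 (173863900 to 173868882), so it is the start of none of those 29 transcripts. The start letters do not show that a transcript was under TOP control in these cells.

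Promoter motifs were less distinct. In the 300 bases from 250 before to 50 after the start, searched on both strands, TATAAA was found in 4 of 27 members (14.8%) and in 11.5% of all promoters. CCAAT was found in 7 (25.9%) against 34.6%, CACGTG in 2 (7.41%) against 7.26%, and the NRF1 palindrome in 0 against 1.24%. The median GC content of these windows was 62% in the members and 58.7% in all promoters.

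Levels are given in CPM, reads scaled to the TMM-adjusted library size, and, to compare genes, in RPKM, the CPM per kilobase of exon. A gene was called detected at 1 CPM or more in every library. Of the 31 members 19 were detected (61.3%), against 18.6% of all 60605 genes and 4.19% of the 15842 genes annotated as long noncoding. The median member stood at 5.26 RPKM, and the median of all long noncoding genes was 0. Together the members took 624, 587 and 606 CPM in replicates 1, 2 and 3, or 605 ± 18.5 CPM (SD, n = 3). As a share of all reads, without TMM, they took 0.058%, 0.0607% and 0.063%, or 0.0606% ± 0.00252. Replicate 1 was thus highest by CPM and lowest by this share. Of the reads that fell in long noncoding genes and members they took 3.69% ± 0.536. The libraries lay close on the CPM sum, which was 596.4 CPM without replicate 1. The labels call the libraries biological replicates.

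SNHG29 was the most abundant host by CPM. SNHG29, known earlier as LRRC75A-AS1 and host of SNORD49A, SNORD49B and SNORD65, lies on chromosome 17 (16438822 to 16478678, plus strand, GRCh38). It stood at 111, 87.2 and 97.9 CPM in replicates 1, 2 and 3, highest in replicate 1. ZFAS1, which begins at the start of ZNFX1 and hosts the SNORD12 family (chromosome 20, 49278178 to 49295738, plus strand), stood at 64.5, 78.6 and 69.2 CPM. In contrast to SNHG29, its lowest library was replicate 1. SNHG16, host of SNORD1A, SNORD1B and SNORD1C (chromosome 17, 76557766 to 76565348, plus strand), stood at 81.2, 57.4 and 50.6 CPM. It varied most of the detected members, with a coefficient of variation of 25.5%. These 3 genes held 38.4% ± 2.64 of all member reads, and SNHG29 alone held 16.3% ± 1.46.

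GAS5, a transcript named for its accumulation in growth-arrested cells and a reported decoy of the glucocorticoid receptor, stood at 55.4, 58.3 and 65.8 CPM (chromosome 1, 173863900 to 173868882, minus strand). SNHG1, host of SNORD22 and of SNORD25 to SNORD31 (chromosome 11, 62851988 to 62855914, minus strand), stood at 48.1, 54.0 and 62.4 CPM. Both were lowest in replicate 1 and highest in replicate 3. SNHG17, host of 4 SNORA71 snoRNAs (chromosome 20, 38420588 to 38435353, minus strand), stood at 51.3, 41.3 and 39.3 CPM, and SNHG15, host of SNORA9 (chromosome 7, 44983023 to 44986961, minus strand), at 39.0, 36.4 and 36.4 CPM. SNHG26, host of SNORD93, was the steadiest detected member, at 25.6, 27.3 and 27.3 CPM with a coefficient of variation of 3.82%. The 8 genes named so far held 75.2% ± 1.15 of the member reads. Of these, 6 were among the 20 highest long noncoding genes by mean CPM, led by SNHG29 at rank 8 and ZFAS1 at rank 10.

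The remaining 11 detected hosts were lower. SNHG12, which carries SNORA44, SNORA61 and SNORD99, stood at 23.8, 25.1 and 28.4 CPM, SNHG6, host of SNORD87, at 21.0, 24.1 and 23.7 CPM, and SNHG7, host of SNORA17A and SNORA17B, at 27.2, 19.7 and 21.6 CPM. SNHG11, SNHG8, SNHG19, SNHG14, SNHG18 and SNHG30 had means from 9.03 to 15.3 CPM. The compact hosts SNHG9, with SNORA78, and SNHG25, with SNORD104 and SNORA50C, were just above the detection level, at 2.1, 2.47 and 3.08 CPM and at 1.92, 1.21 and 2.01 CPM. At a threshold of 10 CPM in every library 14 members would be detected.

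**Figure D1:**
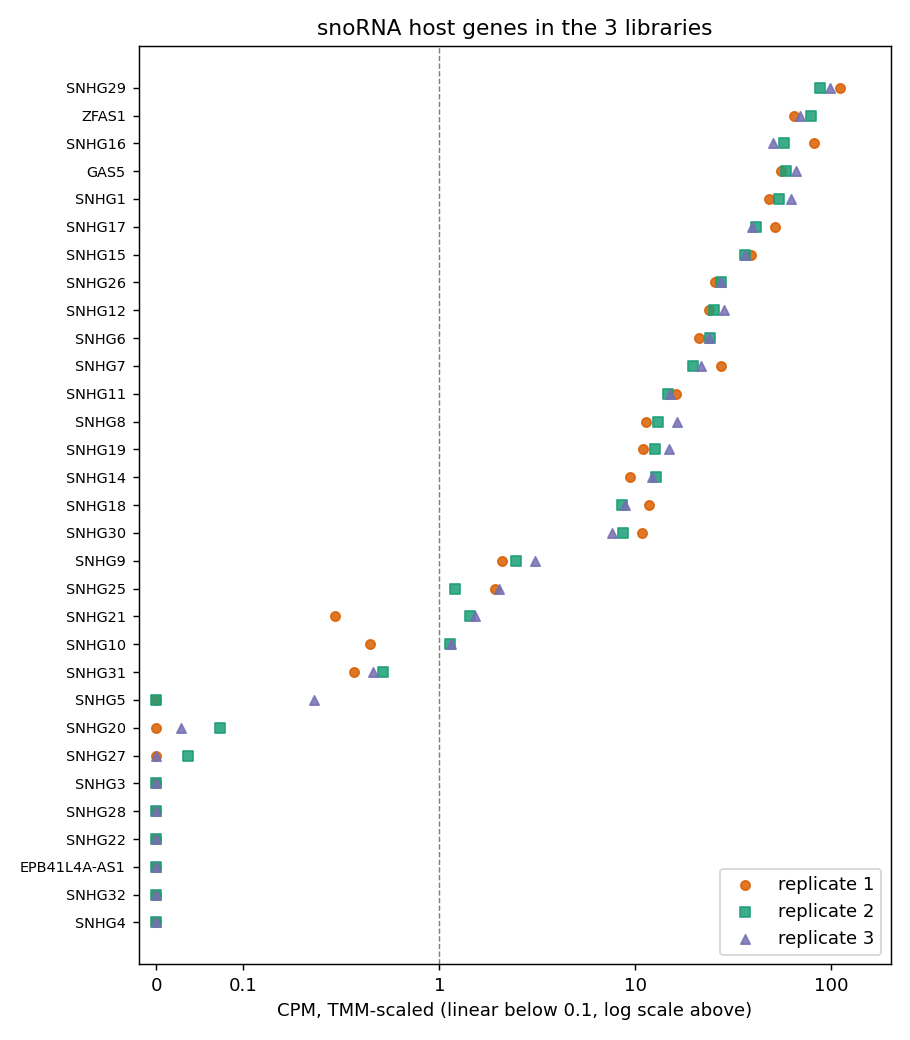
CPM of each of the 31 snoRNA host genes (rows, ordered by mean) in replicate 1 (circles), replicate 2 (squares) and replicate 3 (triangles), on an axis that is linear below 0.1 and logarithmic above. The dashed line is the detection level of 1 CPM; 19 genes lie right of it in every library, and 6 genes are at 0 in all of them.

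Just under the detection level stood hosts of Cajal body RNAs. SNHG21, host of SCARNA15, had 8, 39 and 53 reads in replicates 1, 2 and 3, and SNHG10, host of SCARNA13, had 12, 31 and 40. Both were above 1 CPM in replicates 2 and 3 and under it in replicate 1, so that without replicate 1 the count of detected members was 21. SNHG31 had 10, 14 and 16 reads. SNHG5, which carries SNORD50A and SNORD50B, had 0, 0 and 8 reads, SNHG20 had 0, 2 and 1, and SNHG27 had 0, 1 and 0.

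The other 6 members were listed at 0 reads in each library. They are SNHG3, host of SNORA73A and SNORA73B, SNHG4, SNHG22, SNHG28, SNHG32 (earlier C6orf48, and annotated as protein-coding in GENCODE 29) and EPB41L4A-AS1. All 6 have from 97.4% to 100% of their exon length inside the span of another gene. SNHG3 and SNHG4 lie within the spans of the protein-coding genes RCC1 and MATR3 on the same strand, and EPB41L4A-AS1 lies within that of EPB41L4A on the opposite strand. Over the 8 members with at least 80% of their exons inside other spans, which adds SNHG20 and SNHG31, 0 were detected, against 19 of the 23 other members. Among all long noncoding genes 63 of 7243 (0.87%) were detected with such overlap and 601 of 8599 (6.99%) with less. Over matched genes of all types, 8330 had at least 80% overlap on the same strand alone, and 1.38% of them were detected. On the opposite strand alone the share was 1.75% of 11069 genes, and with no overlap it was 20.7%. Over long noncoding genes only, these shares were 0.785%, 0.887% and 4.52%. A 0 for these 6 genes is therefore given only as listed. By GENCODE 29, SNHG5 and SNHG27 overlap other spans over 2.49% and 0% of their exon length. The 8 reads of SNHG5 were all in replicate 3. Whether the annotation that was counted places it inside another gene is not known, so its value too is given only as listed.

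**Figure D2:**
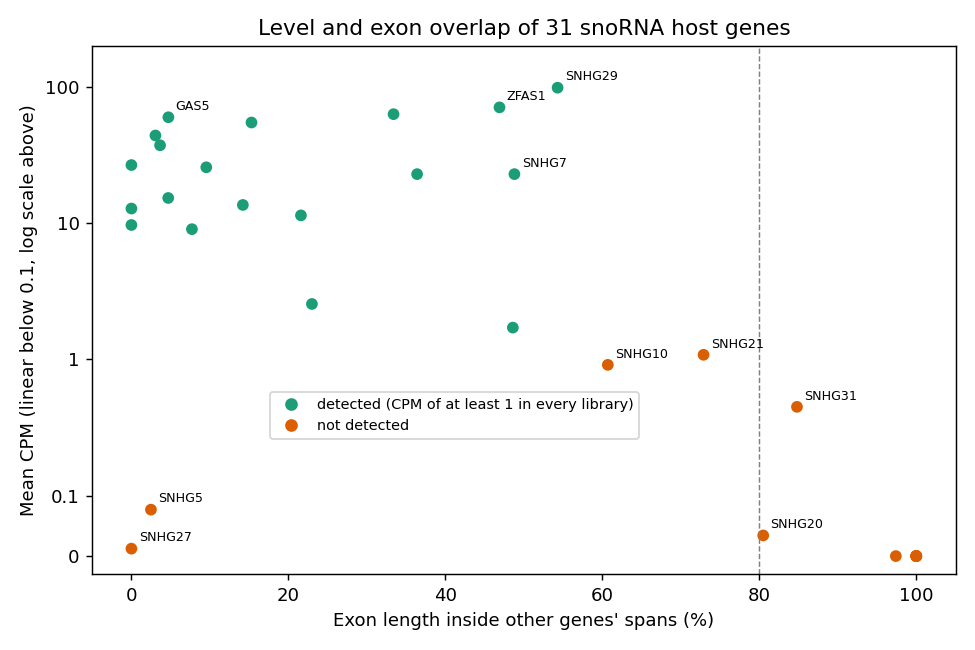
Mean CPM over 3 libraries (linear below 0.1, logarithmic above) against the percentage of exon length inside other genes' spans, for the 31 snoRNA host genes. Right of the dashed line at 80% none of 8 genes is detected, and SNHG5 and SNHG27 stand low with almost no overlap in GENCODE 29.

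The order of the hosts per kilobase depends on the length that is used. Over the union of annotated exons, SNHG19, a short host of SNORD60, was highest at 37.5 ± 5.85 RPKM (SD, n = 3), followed by ZFAS1 at 31.6 ± 3.21, SNHG29 at 26.2 ± 3.15, SNHG6 at 18.4 ± 1.39 and GAS5 at 16.5 ± 1.48 RPKM. SNHG14 was lowest of the detected hosts at 0.264 ± 0.0418 RPKM, over 43324 bases of annotated exon. Of the 18 pairs of neighbours in this order, 2 differed beyond the spread, by a log2 ratio of 1 sign in every library and a mean over 2 SD. These were SNHG7 over SNHG18 (log2 0.08 ± 0.04) and SNHG9 over SNHG14 (log2 4.12 ± 0.20). All the other neighbours, such as SNHG19 and ZFAS1 (log2 0.24 ± 0.23), did not differ beyond it. Other genes' spans cover 46.9% of the exon length of ZFAS1, 54.3% of that of SNHG29 and 0% of that of SNHG19. With the exon length outside those spans, ZFAS1 stood at 59.5, SNHG29 at 57.4 and SNHG19 at 37.5 RPKM.

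In the detected members the union was a median of 2.95 times the median length of the gene's annotated transcripts, from 1.00 in SNHG19 to 39.9 in SNHG14. With that median length, an alternative added after the data were seen, SNHG29 led at 126 ± 15.1 RPKM, before ZFAS1 at 107 ± 10.8, GAS5 at 87.0 ± 7.80, SNHG1 at 73.3 ± 9.59 and SNHG17 at 53.5 ± 7.86 RPKM. SNHG19 moved from rank 1 to rank 9. SNHG14 rose to 10.5 RPKM, above SNHG9 at 6.83 RPKM, so the order of SNHG9 over SNHG14 reversed. In all, 15 of the 19 ranks changed. ZFAS1 held rank 2 under the union and under the median length. Which transcripts of each gene were present cannot be read from gene totals.

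**Figure D3:**
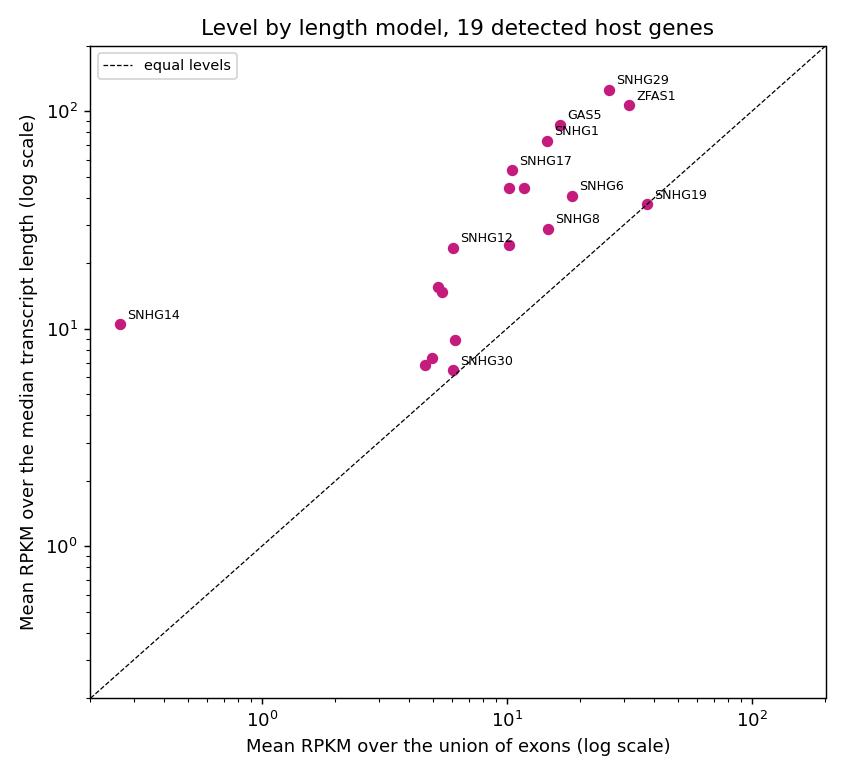
Mean RPKM of the 19 detected snoRNA host genes over the median transcript length (vertical, log scale) against that over the union of annotated exons (horizontal, log scale), with the line of equal levels. SNHG19 lies on the line at 37.5 RPKM, SNHG29 rises from 26.2 to 126 and SNHG14 from 0.264 to 10.5.

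Hosts of box C/D snoRNAs alone were detected in 10 of 12 cases, with a median over the detected of 13.2 RPKM. Hosts of box H/ACA snoRNAs alone were detected in 6 of 10 cases with a median of 7.83 RPKM, all 3 hosts of both kinds were detected with a median of 6.17 RPKM, and 0 of the 4 hosts of Cajal body RNAs were. Of these 4, SNHG20 and SNHG22 overlap other spans over at least 80% of their exon length, SNHG10 over 60.7% and SNHG21 over 72.9%. Of the 4 undetected H/ACA hosts, SNHG3, SNHG4, SNHG31 and EPB41L4A-AS1, all are above 80%. The classes differ in overlap, and whether they differ in level was not tested.

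Several hosts start beside a gene on the other strand. The kit keeps strand, but whether the counting used it is not known. How reads were assigned where such genes overlap is therefore not known either. Genes with at least 80% of their exons inside spans on the opposite strand alone were detected in 1.75% of cases. For genes with no overlap the share was 20.7%. Over long noncoding genes only, these shares were 0.887% and 4.52%. A neighbour was counted where a gene on the other strand starts within 5000 bases upstream of the host or inside its span. Of the 19 detected members 9 had such a neighbour, 6 of them a protein-coding one. Genes that overlap a host but start elsewhere were not counted. SNHG7 and SNHG6 had no such neighbour, though 42.6% and 29.3% of their exon length lies inside spans on the opposite strand. The 9 include SNHG14 and SNHG29, whose neighbours start 53464 and 2130 bases from the host's start, inside its span. The share of all genes with such a neighbour was not computed, so the count is not read as a trait of the hosts. SNHG1 and SLC3A2, which encodes the heavy chain of the CD98 amino acid transporter, start 188 bases apart. SLC3A2 had 6368, 4590 and 5508 reads and stood at 36.2 ± 7.97 RPKM, above SNHG1 in each library (log2 SNHG1/SLC3A2 -1.81, -1.18 and -0.88, mean -1.29 ± 0.48). ZNFX1, an NFX1-type zinc finger helicase, stood at 69.2 ± 10.4 RPKM and exceeded ZFAS1 in each library (log2 ZFAS1/ZNFX1 -1.49, -0.91 and -0.98). With exon length outside other spans the ratio was -0.51 and no longer passed the spread. SNHG9 stood far under RPS2, the ribosomal protein gene 99 bases away at 1063 ± 240 RPKM (log2 -7.81 ± 0.55).

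For other neighbours the host was the higher gene. GAS5 exceeded the zinc finger gene ZBTB37, at 0.383 ± 0.149 RPKM, by a log2 ratio of 5.15 ± 0.43, and SNHG18 exceeded the semaphorin gene SEMA5A, at 0.106 ± 0.0189 RPKM, by 4.61 ± 0.35. Other genes' spans cover 70.3% of the exon length of SEMA5A, and counting the uncovered length alone gave a ratio of 3.47. SNHG19 and TRAF7, a ubiquitin ligase gene 340 bases away, did not differ beyond the spread (log2 -0.34, 0.25 and 0.58). The antisense gene RP11-666A8.8 beside SNHG16 had 26, 16 and 15 reads, and the noncoding genes opposite SNHG29 and SNHG14, RP11-138I1.3 and RP11-701H24.3, were listed at 0 with all their exons inside other spans.

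Replicate 1 stood apart from replicates 2 and 3 over all genes, and the difference followed GC content. The detected members showed little of this, but detection itself required 1 CPM in replicate 1. SNHG21 and SNHG10, under that level in replicate 1 alone, are left out of these comparisons. Their log2 ratios were -1.28 and -0.80 for replicate 1 over replicate 2, and -1.35 and -0.81 for replicate 1 over replicate 3. Over 11212 detected genes with known GC content, the ratio of replicate 1 to replicate 2 rose with GC content at a Spearman rho of 0.70, and over the 19 detected members the rho was 0.14. For replicate 1 over replicate 3 the values were 0.72 and -0.14. For replicate 3 over replicate 2 they were -0.39 over all these genes and 0.42 over the members. These are correlations across genes of the same libraries, given as a description, and only 2 members fall in the lowest of 4 equal groups of genes by GC content. In that group, from 30.2% to 42.1% GC, the median log2 ratio of replicate 1 to replicate 2 was -0.77, whereas SNHG26, at 39.2% GC, stood at -0.09 and SNHG6, at 42%, at -0.20.

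No detected member differed by 2-fold or more between any 2 libraries. Of all detected genes 11.1% were lower by at least 2-fold in replicate 1 than in replicate 2 and 0.134% higher, and for replicates 1 and 3 the shares were 13.3% and 0.294%. Between replicates 3 and 2 each share was 0.0357%. With 19 genes, these shares correspond to few calls at most. SNHG21, which was not detected, stood at log2 ratios of -1.28 and -1.35 for replicate 1 over replicates 2 and 3. The median log2 ratio of the detected members was -0.07 for replicate 1 over 2, from -0.43 (SNHG14) to 0.50 (SNHG16), and that of all detected genes was 0.04. For replicate 1 over 3 it was -0.10, from -0.51 (SNHG8) to 0.68 (SNHG16), against 0.05. For replicate 3 over 2 it was 0.06, from -0.18 (ZFAS1) to 0.55 (SNHG25), against 0.01. In RNA of whole cultures, fewer cells with a transcript and less of it per cell cannot be told apart.

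Replicate 1 was highest for some members and lowest for others, in shares near those of all detected genes. Of the 19 detected, 8 were highest in replicate 1 (42.1%, against 48.5% of all detected genes), among them SNHG16, SNHG29, SNHG17, SNHG7 and SNHG18, and 10 were lowest there (52.6%, against 43% of all), among them GAS5, SNHG1, ZFAS1, SNHG8 and SNHG14. SNHG30, at 10.8, 8.69 and 7.59 CPM, followed SNHG16, while SNHG8, at 11.3, 13.1 and 16.3 CPM, went the other way. The median coefficient of variation was 14.7% over detected members and 16.7% over all detected genes. When the trend with GC content was subtracted, still 0 of the 19 members passed 2-fold. Of all detected genes 0.847% were then higher and 3.97% lower for replicate 1 over 2, 1.3% and 4.85% for replicate 1 over 3, and 0.0357% and 0.0268% for replicate 3 over 2. The median of the members for replicate 1 over 2 turned to 0.15, and the extremes were ZFAS1 at -0.50 and SNHG30 at 0.69. With GC content subtracted the members' ratio to replicate 2 fell with GC content (rho -0.62), so the correction fitted to all genes did not flatten them.

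**Figure D4:**
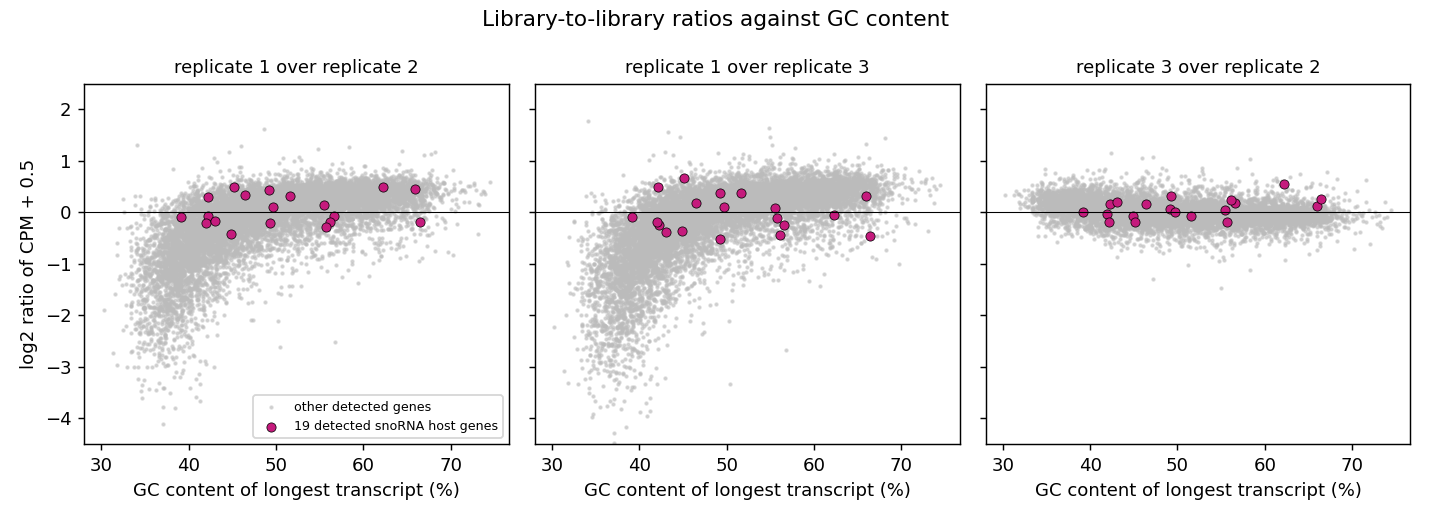
Log2 ratio of CPM plus 0.5 between each pair of libraries against the GC content of the gene's longest transcript, for detected genes (grey) and the 19 detected snoRNA host genes (filled circles). Genes of low GC content fall in both ratios that hold replicate 1, while the 19 detected host genes stay between -0.51 and 0.68.

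Transcripts of the genes fixed for snoRNA particles and their assembly were detected in each case. All 12 box C/D genes were detected, with a median of 18.6 RPKM. The methyltransferase FBL (fibrillarin) led at 266 ± 54.4 RPKM, followed by the assembly ATPase RUVBL2 at 85.6 ± 19.1 and the nucleolar chaperone NOLC1 at 53.8 ± 1.71 RPKM, and NUFIP1, an assembly factor, was lowest at 2.07 ± 0.378 RPKM. All 6 box H/ACA genes were detected too, with a median of 31.2 RPKM. NOP10 stood at 113 ± 8.74, NHP2 at 47.2 ± 7.98 and the pseudouridine synthase DKC1 at 40.9 ± 2.84 RPKM, and the assembly factor NAF1 at 3.72 ± 0.290 RPKM. None of these 18 genes has 80% of its exons inside other spans. Of all protein-coding genes 51.4% were detected, with a median of 0.482 RPKM.

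Genes of nonsense-mediated decay, the pathway that removes spliced host RNA, were detected in 12 of 13 cases, with a median of 6.67 RPKM. SMG5 stood at 56.5 ± 14.2 RPKM, the helicase UPF1 at 43.2 ± 8.57 and DHX34 at 19.7 ± 4.99 RPKM, while SMG8 was listed at 0 with 99.4% of its exons inside other spans. UPF2, which links UPF1 to the exon junction, had 304, 1235 and 1598 reads, and UPF3B had 111, 431 and 681. Both were lower in replicate 1 than in the other libraries, but the list as a whole went no single way. The median level over its 13 genes was 7.5, 8.1 and 8.94 RPKM in replicates 1, 2 and 3, lowest in replicate 1. SMG5 stood at 72.7, 50.5 and 46.4 RPKM, highest in replicate 1. Of the 12 detected genes 6 were highest and 5 lowest there, and the median log2 ratio of the list was 0.13 for replicate 1 over 2 and 0.22 for replicate 1 over 3. All 6 exon junction complex genes were detected, with a median of 19.6 RPKM, led by RNPS1 at 34.3 ± 5.73, EIF4A3 at 27.9 ± 3.82 and MAGOH at 24.2 ± 6.93 RPKM. MAGOHB was lowest at 7.44 ± 2.79 RPKM.

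Regulators of TOP transcripts were detected in 7 of 8 cases, with a median of 12.2 RPKM. EIF4EBP1, a translation repressor that mTOR switches off, stood at 131 ± 26.6 RPKM, CNBP at 104 ± 6.60 and LARP1, which binds the TOP tract, at 56.4 ± 11.4 RPKM. TIA1 had 2, 0 and 0 reads with 99.3% of its exons inside other spans. Of 12 protein-coding transcripts known to carry TOP tracts 11 were detected, with a median of 173 RPKM. EEF1A1 stood at 1340 ± 159 RPKM, EEF2 at 1194 ± 264 and RPLP0 at 388 ± 69.8 RPKM, and HNRNPA1 was listed at 0 with all its exons inside other spans. The list was wide. Over the union of exons, 4 of its 11 detected genes stood under SNHG19, the highest noncoding host by that length at 37.5 RPKM. The lowest of the 4 was EIF4B at 0.402 ± 0.145 RPKM, with 93.7% of its exons inside other spans.

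**Figure D5:**
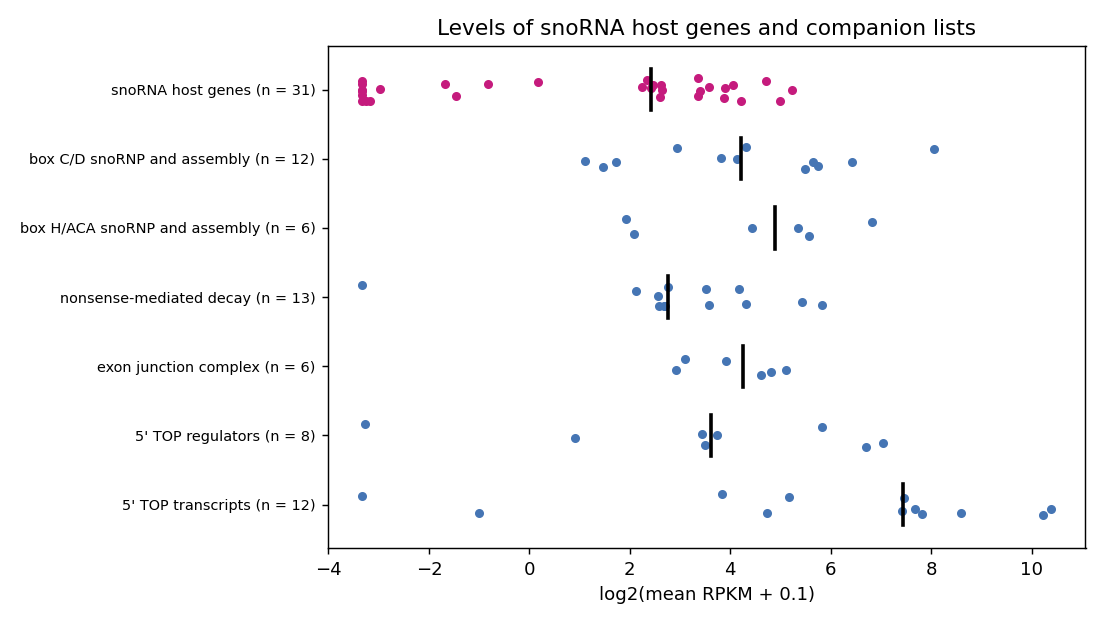
Mean RPKM over 3 libraries plus 0.1, on the log2 scale, of each snoRNA host gene and of the genes in 6 companion lists, with the median of each as a bar. Points are spread vertically for legibility only; the host genes reach from 0 RPKM to 37.5 RPKM, and the 12 TOP transcripts have a median of 173 RPKM.

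Most snoRNA hosts in the genome are protein-coding. By GENCODE 29, 208 protein-coding genes hold a snoRNA in an intron on the same strand, and 151 of them (72.6%) were detected, against 61.3% of the noncoding hosts. The order depends on overlap. Of the hosts with under 80% of their exons inside other spans, a split made after the data were seen, 149 of 189 protein-coding (78.8%) and 19 of 23 noncoding (82.6%) were detected. Over detected genes the median was 8.93 RPKM (quartiles 2.79 and 34.1) in the protein-coding hosts and 10.2 RPKM (quartiles 5.72 and 15.6) in the noncoding hosts. The difference was not tested, and its direction depends on the length. Over all noncoding and all protein-coding hosts, detected or not, the median levels were 2.41 and 1.91 on the log2 RPKM scale. They were 1.36 and -1.68 with the whole gene span, but 3.28 and 4.89 with no length. Among the highest protein-coding hosts were the ribosomal protein gene RPS12 at 762 ± 50.9 RPKM, the chaperone gene HSPA8 at 516 ± 80.5, the ATP synthase subunit gene ATP5F1B at 297 ± 50.8 and the ribosomal protein gene RPL3 at 225 ± 31.9 RPKM. Over all detected protein-coding hosts the median log2 ratio of replicate 1 to replicate 2 was -0.05.

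The cell type of the label was checked against marker genes. Of 7 markers of renal carcinoma epithelium 6 were detected, among them KRT8 at 147 ± 30.9, CA9 at 50.5 ± 13.5 and PAX2 at 7.77 ± 0.371 RPKM, while LRP2, a marker of the proximal tubule, had 0, 2 and 0 reads. The leukocyte markers PTPRC, CD3E and CD68 were listed at 0 in each library, of which PTPRC and CD3E overlap no other span and CD68 lies wholly inside one, and the summed level of 3 endothelial markers was from 0.172 to 0.515 CPM. Of 4 fibroblast markers COL1A1 alone was detected, at 0.754 ± 0.0931 RPKM.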

How the data were processed

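Poly(A) RNA of 3 biological replicates was measured. The submitters' processing notes name FastQC, the trimmer cutadapt 1.18, the aligner HISAT2 2.1.0, the counter featureCounts 2.0.0 and the genome hg38. Which gene annotation was counted, and whether strand was used, is not given in the sources used here. How reads were assigned where a host and its antisense partner overlap is therefore not known. The authors deposited 1 signal value for each gene and library, and these values prove to be gene counts over 1 size factor per library. In each library 100% of nonzero values were whole multiples of 1 read within 0.01 of a read. Those whole reads were used, and no count test was run because there is 1 group. Reads were scaled with TMM (edgeR 4.0.16, R 4.3.3), with size factors of DESeq2 1.42.0 as an alternative. Genes were matched by identifier to GENCODE 29 (96.3% of genes, all 31 members), whose release need not be the authors'. GC trends were fitted with lowess (statsmodels 0.14.6, fraction 0.3) over detected genes, and this and the ratios were tested on simulated data with planted changes. The members, lists and tests were chosen with earlier results of these data known. Every member was named by a set rule, as were the neighbour of each detected member, and of each companion list the 3 highest, the lowest and those at 0, and the 5 highest protein-coding hosts. Some genes that this rule or the marker lists name are not reported here. Other genes, among them UPF2, UPF3B and marker genes, were named outside that rule after their values were seen. In each library 265 to 271 genes stood at 1 read and 1621 to 1809 at 2, so the 2 mates of a pair may have been counted apart and reads are not independent molecules.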

Additional observations from a re-analysis of the deposited data

How the results depend on the processing

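With 1 group and 3 libraries there is no test between groups, and the spread rests on few libraries, of which replicate 1 stands apart. The count of 19 detected members was 22 at 0.1 CPM, 14 at 10 CPM and 21 with at least 10 reads in every library, and ran from 19 to 21 when a replicate was left out. The median level of the members, 2.41 on the log2 RPKM scale, ran from 2.35 to 2.5 when a replicate was left out. It was 3.06 with the exon length outside other genes' spans, 1.36 with the whole gene span, 3.28 with no length, 2.64 with a pseudocount of 1 and 3.14 with the median transcript length, which was added after the data were seen. It was 3.37 over detected members alone and 2.61 without members at 80% overlap or more. These alternatives change the length, the pseudocount or the genes, not the reads. The summed level ran from 596.4 to 614.8 CPM, the share of the highest member from 15.5% to 17% and that of the 3 highest from 37% to 39.6% when a replicate was left out. With total reads in place of TMM the median log2 ratio of members was -0.22 for replicate 1 over 2 and -0.25 for replicate 1 over 3. With GC content subtracted that of replicate 1 over 2 reversed to 0.15; the cause was not tested. Counting members with at least 10 reads in some library, 1 member, SNHG21, passed 2-fold for replicate 1 over 2 and 1 for replicate 1 over 3. The log2 ratio of SNHG19 to TRAF7 reversed to -0.18 with the exon length outside other spans, to -3.54 with no length and to -0.04 without replicate 3, with a highest value of 0.41 without replicate 1. ZFAS1 to ZNFX1 fell within the spread at -0.51 with that outside length. The whole gene span moved the level of 18 of 31 members beyond its SD, and no length did so for 21. Scaling by DESeq2 size factors or total reads did so for 0. That count is no check of the scaling, because the level is a mean of logs over 3 libraries. By construction these scalings leave such a mean nearly unchanged. No paired analysis was possible because there is 1 group.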
